A study of Caenorhabditis elegans with 4 samples.

Results

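The regions described here are the REC-8 binding regions in the left part of the X chromosome, close to 1 of 3 equal parts of it of Caenorhabditis elegans. Members were the regions of the series-level peak list that lay on X with a midpoint at most 5900000 bp from the left end (WormBase build WS220), the part of X that holds its pairing centre. The rule used position alone and selected 360 of the 7283 regions of the list, which held 1104 regions on X. REC-8 was mapped by chromatin immunoprecipitation and sequencing (ChIP-seq) in fem-2(b245) animals. All libraries shared this genotype, listed as fem-2(b245)III, and were labelled as hermaphrodites at 20 °C, at a young adult stage that contains a germline. The growth protocol calls the harvested animals gravid. The series had 4 libraries, with 2 from a rabbit polyclonal antibody against REC-8 and 2 from input DNA, and each REC-8 library had a peak list of its own. Whether the replicates were separate cultures is not stated, so their spread may be technical. Chromatin came from whole animals, so the share of germ cells in it was not measured, and the read depth of each library is unknown.

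REC-8 is the kleisin of a meiotic cohesin, the ring-shaped complex that holds sister chromatids together, and it is found along the chromosome axes of worm germ cells. Each worm chromosome has a pairing centre near one end, where zinc finger proteins bind short repeated motifs and link the chromosome to the nuclear envelope, so that homologues can meet and synapse. On X that centre lies towards the left end and is bound by HIM-8. Its bounds were not in the files, and regions are given by coordinates in WS220, because no gene annotation of that build was used here.

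REC-8 regions in the left part of X had a density, width and median score close to those of the remaining X. Their strength and reproducibility varied along the left part itself. In the outermost 2 Mb, 54 of 125 members (43.2%, 95% Wilson interval 34.8 to 51.96%) were overlapped by peaks of both replicates, against 52 of 235 members (22.1%, interval 17.3 to 27.9%) from there to 5.9 Mb. Counted with a single replicate, this excess of 21.1 percentage points was 14.8 points with replicate 1 (48.8% against 34.04%) and 8.44 points with replicate 2 (54.4% against 45.96%). The median series-level score was 10.65 in the first stretch (95% interval 7.24 to 13.08) and 7.05 in the second (interval 6.16 to 7.69). These intervals for the median overlapped. All intervals here count each member as separate, although 6 of the 54 shared a single peak of each replicate. They do not cover the spread between libraries, so whether they overlap decides nothing about a difference. Both stretches held regions at almost the same density, 62.5 and 60.3 per Mb. This division at 2 Mb was chosen after the values were seen, the series has 1 group with 2 REC-8 libraries, and no test was made of the difference.

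The left part carried 61.02 regions per Mb (95% Poisson interval 54.9 to 67.7), the remaining X 62.97 per Mb (interval 58.5 to 67.7) and the autosomes 74.9 per Mb (interval 73.04 to 76.8). Members covered 150.4 kb in total, or 2.55% of the left part, and the 744 regions of the remaining X covered 2.56% of it. Member width ran from 146 to 5227 bp with a median of 291 bp (quartiles 205 and 432 bp), beside a median of 287.5 bp on the remaining X and 293 bp in the whole list. The series-level score is the authors' own peak score, for which no scale is stated and a higher value is read as a stronger peak. It ran from 1.45 to 199.82 in the left part with a median of 7.38 (quartiles 4.74 and 16.5). Medians were 7.64 on the remaining X and 7.86 in the whole list. The intervals for the median, 6.85 to 8.32 in the left part and 6.92 to 8.46 on the remaining X, overlapped for most of their length. Intervals here cover counting error only.

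Support by the replicate lists was close to that of the whole series. A peak of each replicate overlapped 106 of the 360 members by at least 1 bp (29.4%, Wilson interval 24.97 to 34.3%), against 29.1% of the whole list and 26.9% of the remaining X. Replicate 1 alone overlapped 35 members (9.72%, interval 7.07 to 13.2%), against 7.65% of the whole list and 5.78% on the remaining X (interval 4.32 to 7.69%). Replicate 2 alone overlapped 70 members (19.4%, interval 15.7 to 23.8%), against 18.6% of the whole list and 23.3% on the remaining X (interval 20.4 to 26.4%). No replicate peak met 149 members (41.4%), against 44.6% of the whole list. At least 1 replicate met 211 members (58.6%), beside 55.4% of the whole list. All 3 lists come from 1 series, and the libraries behind the series-level list are not stated. Support thus shows how steady a region was across lists and is not taken as independent evidence for it.

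Supported members were the stronger and wider ones. Members met by both replicates had a median series-level score of 29.6 (range 4.20 to 199.82) and a median width of 541 bp. Members met by replicate 2 alone had a median score of 9.24 (range 2.77 to 34.39), those met by replicate 1 alone 5.73 (1.45 to 18.55) and those met by neither 5.02 (1.45 to 17.63). The scores of these classes overlapped at their lower ends, and above a score of 34.39 every member was met by both replicates. With the scores of the whole list cut into 4 equal classes, both replicates met 2 of 85 members in the lowest class and 6 of 108 in the next. They met 18 of 78 in the class from 7.86 to 16.84 and 80 of 89 in the highest, above 16.84 (89.9%, Wilson interval 81.9 to 94.6%). On the remaining X that highest class had 88.4%. Score and width went together across the 360 members, with a Spearman's rho of 0.618, and both values come from the same call of a region.

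Read from the left end inward, support by both replicates was highest in the outer windows. In the first window of 1 Mb, both replicates met 27 of 57 members (47.4%), and in the second 27 of 68 (39.7%). The third window had 13 of 63 (20.6%), the fourth 13 of 51 (25.5%), the fifth 20 of 77 (25.97%) and the sixth, which holds 0.9 Mb, 6 of 44 (13.6%). The 11 full windows of the remaining X had 20.9 to 32.3%, so the first pair of windows lay above all of them, and the third and the sixth lay below. Median scores took the same order at the outer end, with 11.8 and 9.04 in the first and second windows and 6.81 to 7.37 in the other 4. The number of members per window did not follow this order, and was highest in the fifth window.

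**Figure D1:**
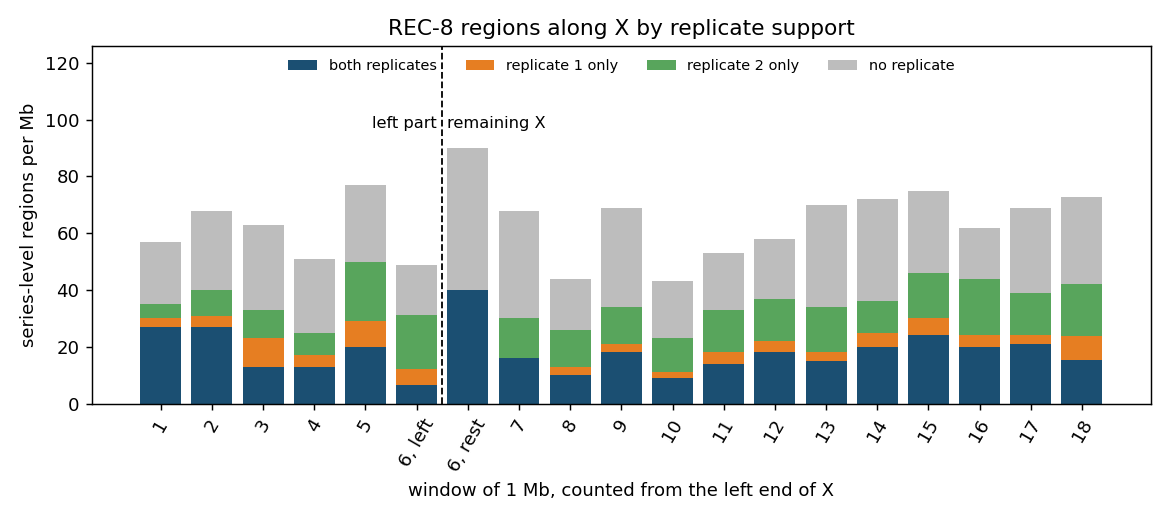
Series-level REC-8 regions per Mb (vertical axis) in windows of 1 Mb counted from the left end of X (horizontal axis), coloured by which replicate lists hold an overlapping peak. The dashed line marks the end of the left part, and the bar just right of it stands for 0.1 Mb with 9 regions. The dark part of the bars, for regions met by both replicates, is 27 per Mb in windows 1 and 2 and 13 per Mb in windows 3 and 4.

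Members found in replicate 2 alone made up a larger share further inward. Replicate 2 alone met 5 members of the first window (8.77%), 9 of the second (13.2%), 10 of the third (15.9%), 8 of the fourth (15.7%), 21 of the fifth (27.3%) and 17 of the sixth (38.6%). The 11 full windows of the remaining X had 15.3 to 32.3%. The first and second windows lay below that range, the sixth, of 0.9 Mb, above it and the others within it. Shares for replicate 1 alone went from 5.26% in the first window to a highest value of 15.9% in the third and 11.4% in the sixth. Elsewhere in the genome, replicate 2 alone met 20.7 to 25.1% of the regions in the middle part of each of the 6 chromosomes, cut into 3 equal parts, and 10.9 to 16.9% in the outer parts of the autosomes. The right part of X, with 22.4%, lay within the range of the middle parts, and the left part as a whole, with 19.4%, lay between both ranges. The share of members met by no replicate stayed between 35.1% and 50.98% in the 6 windows and showed no such order. Sequencing depth of the libraries is unknown and its part in these shares was not tested.

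**Figure D2:**
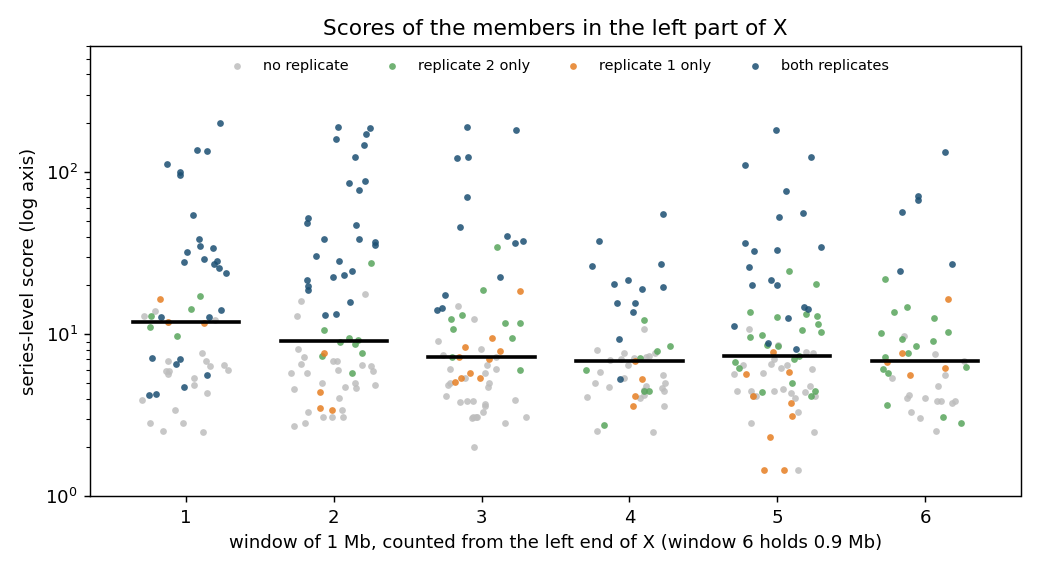
Series-level score (log axis) of each of the 360 members by window of 1 Mb from the left end of X, coloured by replicate support, with a black bar at the median of the window. The medians are 11.8 in window 1, 9.04 in window 2 and 6.81 to 7.37 in windows 3 to 6, and the dark points of members met by both replicates fill the upper part of each window.

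Some of the outer members shared replicate peaks, which raised their count. In the first 2 Mb, 6 neighbouring members lay inside a single wide peak of each replicate. With members of the same pair of replicate peaks counted once, both replicates met 49 of 120 members (40.8%) in the first 2 Mb and 52 of 235 (22.1%) beyond. Merged peaks of both replicates, built without the series-level list, numbered 48 in each stretch, which is 24.0 per Mb in the first 2 Mb and 12.3 per Mb from there to 5.9 Mb. The remaining X held 201 over 11.8 Mb, and the density in the left part as a whole was 0.956 of that. The contrast within the left part thus joins a richer outer stretch to a poorer inner one. Without the densest 100 kb window, both replicates met 42 of the remaining 107 members (39.3%) of the first 2 Mb and the median score was 8.65. Score and support moved together here: 44 of 125 members in the first 2 Mb had a score in the highest of the 4 classes (35.2%), against 45 of 235 beyond (19.1%). Within that class, both replicates met 41 of 44 and 39 of 45.

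The replicate lists taken by themselves showed stronger peaks near the left end in both libraries. Replicate 1 had 126 peaks in the left part, with 53 in the first 2 Mb at a median score of 338 and 73 beyond at a median of 148. Replicate 2 had 179 peaks, with 65 in the first 2 Mb at a median of 215 and 114 beyond at a median of 135. The direction was the same in each of the 2 libraries, and the smallest two-sided p that an exact sign flip over 2 libraries can give is 0.5. Scores of the replicate lists are on a different scale from the series-level score.

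For the left part as a whole the libraries did not point the same way. The median peak score of replicate 1 was 213.9 in the left part and 151.6 on the remaining X, a difference of 62.3. In replicate 2 the medians were 148.8 and 164.8, a difference of -16.1. The mean difference was 23.1 ± 55.4 (SD, n = 2 libraries), which is smaller than its spread. Peaks in the highest 10% of their own list made up 25 of 126 peaks of the left part in replicate 1 (19.8%, against 12.9% on the remaining X). In replicate 2 they made up 30 of 179 (16.8%, against 11.9%). This share was thus higher in the left part in both, and no intervals were computed for it. In the series-level list the shares were closer, at 10.0% in the left part and 8.87% on the remaining X. Of the peaks in the left part, 100 of 126 in replicate 1 overlapped a peak of replicate 2 (79.4%, Wilson interval 71.5 to 85.5%), and 104 of 179 in replicate 2 overlapped one of replicate 1 (58.1%, interval 50.8 to 65.1%). Over all peaks of each list these shares were close, at 79.3% in replicate 1 and 61.1% in replicate 2. The series-level list held all 126 peaks of replicate 1 and 176 of the 179 of replicate 2, beside 97.7% and 97.1% over all peaks of these lists.

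Strong members were spread unevenly over the left part, and the second window of 1 Mb held the most. A score in the highest 10% of the whole list, above 42.3, was reached by 36 members (10.0%, against 10.0% of the list), and both replicates met all 36. The first window held 7 of them, the second 12, the third and the fifth 6 each and the sixth 4, beside 4 to 9 in the full windows of the remaining X. Of the 19 in the first 2 Mb, 5 lay in a single window of 100 kb, and 14 were left without it. Neighbours among the 36 were a median of 93.8 kb apart from midpoint to midpoint (quartiles 21.3 and 235.2 kb). The longest distance, 1115 kb, separated the member at X:3074983-3076032 (score 55.19) from that at X:4190488-4190969 (score 76.41). The fourth window, with 51 members, held 1 of the 36. Scores above 100 were found for 18 of the 360 members, 30 of the 744 regions of the remaining X and 209 of the 7283 of the list. Per Mb this was 3.05 in the left part, 2.54 on the remaining X and 1.95 on the autosomes. At the cut of the highest 10%, the order against the autosomes was the reverse. The left part had 6.10 such regions per Mb, the remaining X 5.59 and the autosomes 7.60.

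The member with the highest series-level score, X:805947-807321 (1375 bp), had 199.82, which was also the highest of the whole list, and a peak score of 3100 in each replicate. A score of exactly 3100 was shared by many peaks of the replicate lists, so peaks at this value could not be ranked among themselves. Next came X:1388782-1390451 (1670 bp) with a series-level score of 190.3, which ranked 3rd in the whole list. X:2996023-2997872 (1850 bp) had 190.18 and X:1626329-1628070 (1742 bp) had 187.28. These members also scored 3100 in both replicates.

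The following members were X:4208158-4210574 (2417 bp, series-level score 182.17), X:2364036-2365587 (1552 bp, 181.34), X:1344391-1345753 (1363 bp, 172.5) and X:1503304-1505199 (1896 bp, 159.75). Each again reached 3100 in both replicates, so the 8 strongest members were tied there. Of these 8, 5 lay in the first 2 Mb.

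Below these, tied values gave way to graded ones. X:1888314-1888968 (655 bp) had a series-level score of 146.35, with 1599.53 in replicate 1 and 1295.98 in replicate 2. X:409847-410530 (684 bp) had 137.18, with 1985.34 and 1398.38. X:516410-517005 (596 bp) had 134.44, with 2534.05 and 1765.88. Replicate 1 gave the higher value in all 3 of these, and they were less than 1 kb wide. X:5428987-5429915 (929 bp), the twelfth by score at 133.92, was at 3100 in both replicates. It was the ninth and last member tied there, of 22 such regions on X. In the whole list, 65 regions were at or above 3100 in both replicates. The value was not a ceiling, as the highest peak scores were 3213.77 in replicate 1 and 3233.06 in replicate 2.

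**Figure D3:**
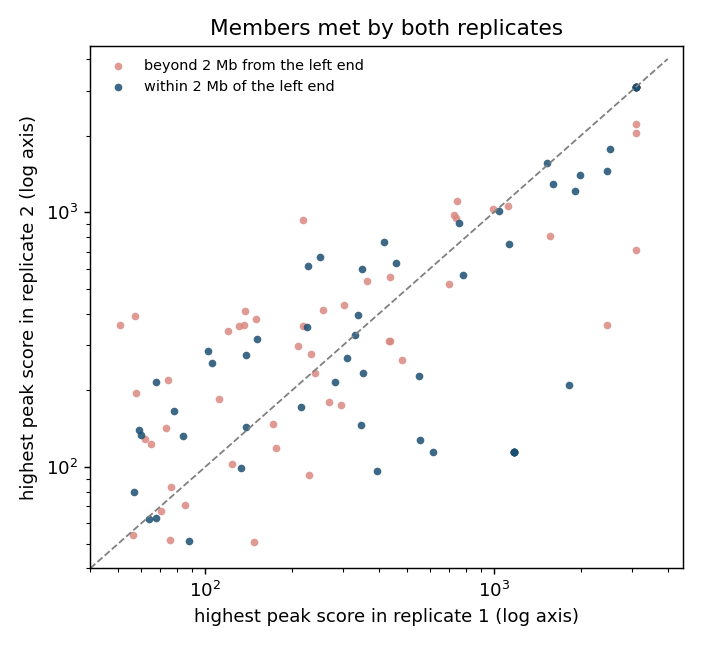
Highest overlapping peak score in replicate 1 (horizontal, log axis) and replicate 2 (vertical, log axis) for the 106 members met by both, with equal scores on the dashed line. Members within 2 Mb of the left end are dark. The 9 tied members coincide at 3100 in both lists, and 6 coincide at 1177.33 in replicate 1 and 114.3 in replicate 2.

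Over the 106 members met by both replicates, neither library was the higher throughout. Replicate 1 had the higher peak score for 51, replicate 2 for 46, and 9 were equal. As the scale of these scores and the depth of the libraries are unknown, a difference in score is not a measure of the difference in binding. Across the 106 members, Spearman's rho between the replicates was 0.652, and it was 0.508 across the 94 below the tied value in both. The remaining X had 0.662 over 200 regions and 0.580 over 186. These are descriptions across regions of 1 pair of libraries, and some members share a peak.

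A stretch about 110 kb from the left end looked different in the 3 lists. A row of 6 members followed each other at X:109867-110074, X:110219-110783, X:110861-111321, X:111653-112313, X:112604-113861 and X:113920-114093, with weak series-level scores of 4.28 to 7.09. In each replicate they fell within a single peak, which ran over 5215 bp in replicate 1 (X:109149-114363) and 4913 bp in replicate 2 (X:109427-114339). That peak scored 1177.33 in replicate 1 and 114.3 in replicate 2, on lists with median scores of 171 and 151. The stretch was thus a broad peak above the list's median in replicate 1, a broad peak below it in replicate 2 and a string of short regions below the median in the series-level list.

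The very end of X also differed between lists. The outermost member, X:1-321, had a series-level score of 4.20, which ranked 294th of the 360 members, whereas its peaks scored 415.38 in replicate 1 (X:1-368) and 762.01 in replicate 2 (X:1-340). The next member inward, X:5900-6082, had a score of 2.54 and met no replicate peak. Among members under the list's median score of 7.86, both replicates met 8, namely the outermost one, the 6 at 110 kb and X:3115436-3115665. The last of these scored 5.27 in the series-level list, 50.76 in replicate 1 and 361.14 in replicate 2. Repeat content and mappability of these places were not analysed here.

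Wide members were few and did not always have the highest scores. At least 1000 bp was reached by 24 members (6.67%, against 5.38% on the remaining X). The widest, X:4142015-4147241 (5227 bp), had a series-level score of 34.5, which ranked 48th among the members. Its replicate 1 peak of 6438 bp was at 3100, and replicate 2 covered it with 3 peaks scoring 862.43, 254.91 and 2211.68. The second widest, X:2968878-2971934 (3057 bp), scored 37.72, with highest values of 1121.79 and 1057.12 in the replicates. The other 3 of the 5 widest, at X:4208158-4210574 (2417 bp), X:2057785-2059797 (2013 bp) and X:1503304-1505199 (1896 bp), had series-level scores of 182.17, 123.56 and 159.75. X:2057785-2059797 scored 3100 in replicate 1 and 2047.76 in replicate 2.

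Spacing between members varied widely. The 359 gaps between neighbouring members ran from 43 bp to 165.6 kb, with a median of 5394 bp (quartiles 666 and 20081 bp). The remaining X had a median of 5625 bp (quartiles 845 and 22285 bp), and the intervals for both medians, 3857 to 7572 bp and 4536 to 7269 bp, overlapped. Gaps of at most 500 bp made up 22.8% in the left part and 17.6% on the remaining X, and gaps of at most 2 kb made up 36.2% and 34.5%. Gaps over 50 kb made up 7.80% and 7.81%.

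**Figure D4:**
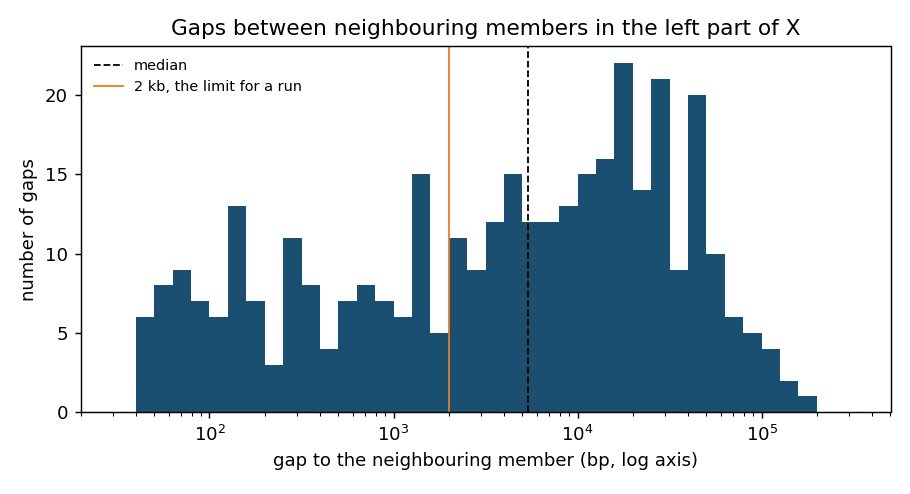
Number of gaps (vertical axis) by length in bp (horizontal, log axis) between the 360 neighbouring members in the left part of X, with the median of 5394 bp dashed and the limit of 2 kb for a run in orange. Short gaps of under 500 bp and gaps of over 10 kb both occur, and the longest is 165.6 kb.

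Joined at gaps of at most 2 kb, the members formed 230 groups, of which 165 were single members and 65 were runs of 2 or more that held 195 members (54.2%, against 50.4% on the remaining X). Runs of 5 or more numbered 11. The longest had 10 members over 13885 bp at X:4134866-4148750, with scores of 4.13 to 34.5, and both replicates met 5 of them. Runs of 8 members lay at X:2693075-2698702 (1 met by both), X:3111264-3117590 (5 met by both) and X:4016038-4022431 (2 met by both). With each member counted, membership in a run went with little change in support: both replicates met 30.3% of single members, 28.5% in runs of 2 to 4 and 29.2% in runs of 5 or more. The last share stood for 21 of 72 members, and 6 of the 21 shared a single peak of each replicate at about 110 kb. Shared peaks were not counted once here. Median scores for single members, runs of 2 to 4 and runs of 5 or more were 8.89, 7.38 and 5.73. Median widths were 267, 300 and 366.5 bp.

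Density was uneven at the scale of 100 kb. The 59 windows of 100 kb held a median of 5 members (quartiles 3 and 7), and 12 windows with 10 or more held 160 members (44.4%). The densest, X:1300001-1400000, had 18 members, of which both replicates met 12 and 5 reached the highest 10% of the list. In that window, X:1344391-1345753 and X:1388782-1390451 both scored 3100 in each replicate, and X:1375616-1376884 had a series-level score of 88.49 with 1902.5 and 1215.23 in the replicates. Next to it, X:1400001-1500000 had 15 members, of which both replicates met 5. No member had its midpoint in X:2100001-2200000, X:2700001-2800000 or X:3400001-3500000.

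The longest stretches without a member were X:3371517-3537156 (165.6 kb), X:5524465-5653851 (129.4 kb), X:601828-727741 (125.9 kb), X:1628071-1752409 (124.3 kb) and X:2090811-2215097 (124.3 kb). The first contained no replicate peak either. In each of the other 4, 1 or 2 peaks of the replicate lists touched the stretch or its edge.

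The boundary at 5900000 fell into such a gap. The last members inside, X:5845142-5845441 (score 16.5) and X:5845485-5846234 (score 6.77), shared a replicate 1 peak with a score of 154.7 and had no replicate 2 peak. The first regions outside were X:5937030-5937898, with a score of 21.33 and 120.69 and 181.68 in the replicates, and X:5937945-5938233, with a score of 3.10 and no replicate peak. No region lay in the 90.8 kb between them, and a boundary at the end of the left of 3 equal parts of X would have selected the same number of members.

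With each of the 6 chromosomes cut into 3 equal parts, the left part of X took a different place among the 18 parts in each order. It ranked 14th by regions per Mb, 7th by the share met by both replicates, 13th by median score and 7th by the share in the highest 10% of scores. By the share met by replicate 1 alone it ranked 4th, and by the share met by replicate 2 alone 8th. In the replicates' own lists its median peak score ranked 2nd in replicate 1 and 11th in replicate 2. The left parts of the autosomes had 44.8 to 95.7 regions per Mb and 27.9 to 30.8% of regions met by both replicates, ranges that include the values for X. The outermost 2 Mb compared differently with the 12 chromosome ends of that length. By the share met by both replicates, the left end of X ranked 1st with 43.2% (54 of 125), followed by the right end of IV with 37.6% (32 of 85). By the number met by both replicates it was not 1st. The right ends of II and III held 64 and 58 such regions, and the left end of I held 54 as well. By median score it also ranked 1st with 10.65, followed by the right end of II with 9.43. Without its densest 100 kb window the left end of X had 39.3% and a median score of 8.65. That median was below those of the right end of II, the left end of I (9.32) and the right end of IV (8.74), each taken whole. The left end of X ranked 7th by regions per Mb. Its 19 regions in the highest 10% of scores tied for rank 3 with the right ends of I and III, after the right end of II with 23 and the left end of I with 22. In the replicates' own lists its median peak score ranked 1st in replicate 1 (338, followed by 310.6 at the right end of X) and 2nd in replicate 2 (215, after 252.4 at the right end of IV). These ranks are descriptions, since the ends were compared after the values for X had been seen and no test was made.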

How the data were processed

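Peaks were used as deposited, as 1 list for each REC-8 ChIP library and 1 list for the whole series. Each list gives a score per peak that the authors deposited, with no stated scale. The lists name MACS (replicates) and MACS v2 (series level) as their source and WormBase WS220 as their build, per the file headers. The submitters' processing notes name BWA and ce10. Not given in the sources used here are the settings of the caller, the role of the input libraries and any pooling. A list with a minimum score cannot show weaker binding, and a deeper library can give more peaks. Input libraries had no list and were not analysed.

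Members were regions of the series-level list on X with a midpoint of at most 5900000. A replicate supported a member by an overlap of 1 bp or more, and the highest overlapping peak score was taken. The last peak end on a chromosome stood for its length. Runs joined regions with gaps of at most 2 kb. Shares have Wilson intervals, densities Poisson intervals and medians binomial order-statistic intervals, each at 95% and for counting error only. With 1 group of 2 libraries, no test was made. Overlap, joining and gaps were tested on simulated lists with known answers.

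The members and comparisons were chosen with earlier results of these data known. By rule, the text names the 12 highest and 5 widest members, the 5 longest gaps, the longest runs, the densest and empty 100 kb windows, and the members at the left end and at the boundary. The division at 2 Mb, the chromosome ends and the weak members met by both replicates were chosen after their values were seen. Alternatives were another overlap, boundary, score limit and joining, and each replicate alone. Python 3.11.15, numpy 2.4.6, scipy 1.17.1, pandas 2.3.3 and matplotlib 3.10.9 were used.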

Additional observations from a re-analysis of the deposited data

How the results depend on the processing

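No paired analysis was possible because only the REC-8 ChIP libraries have peak lists, so no other group carries the same replicate numbers. With only regions at or above the list's median score, 167 members remained, both replicates met 58.7% of them, and the median score was 18.7, the median width 390 bp and the median gap 18887 bp, as fewer and stronger regions entered. Joining gaps of at most 500 bp gave a median gap of 10975 bp. Merged peaks of both replicates numbered 96 in the left part, and the peaks of a single replicate 126 to 179. With a single replicate, 39.2 to 48.9% of members were met. The excess of support in the first 2 Mb over the rest of the left part, 21.1 percentage points for both replicates, was 8.44 to 14.8 points with either replicate alone. It was 13.0 points for the first 3 Mb, 21.3 for the first 1 Mb and 18.7 with members in the same pair of replicate peaks counted once, all 3 chosen after seeing the data. The median peak score of the left part minus that of the remaining X was -16.1 in replicate 2 and 62.3 in replicate 1, against a mean of 23.1, and the cause was not tested. The density ratio of left part to remaining X, 0.969, ran from 0.908 to 1.02. Unknown depth limits any statement on regions missing from a list.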
